A study of Mus musculus with 4 samples.

Results

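The splicing factor and hnRNP genes described here were the 66 genes, of 24087 listed, whose symbol begins with Srsf (11 genes), Hnrnp (21), Sf3a or Sf3b (9), Snrp (12) or Prpf (13). They were measured by RNA-seq in regulatory T (Treg) cells sorted as CD3+CD4+YFP+ from the spleen of C57BL/6 mice at steady state. KO mice were Foxp3Cre-YFPSetd2f/f, in which Cre and YFP are expressed from the Foxp3 locus and both alleles of Setd2 are floxed. CTRL mice were Foxp3Cre-YFPSetd2f/+ littermates, which carried the same Cre and 1 floxed allele, so the comparison is of 2 floxed alleles against 1 and not against intact Setd2. The labels do not give an age for these mice. The study's methods describe its mice for in vivo work in general as age-matched littermates within a stated range of weeks of age. Both sexes were used unless otherwise noted, and neither age nor sex is given for these libraries. Each genotype had 2 libraries (CTRL 1, CTRL 2, KO 1 and KO 2), and each library was made from cells pooled from 2 mice, so p-values measure the spread between pools rather than between single mice.

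Introns are removed by the spliceosome, which is built on each transcript from small nuclear ribonucleoproteins (snRNPs). The U1 snRNP binds the start of an intron and the U2 snRNP its branch point, and a further assembly of snRNPs then joins them and activates the complex. SR proteins (Srsf genes) mostly favour the use of the exons they bind, heterogeneous nuclear ribonucleoproteins (Hnrnp genes) coat nascent transcripts and often act against them, and both kinds of protein tune their own mRNA through alternative splicing. Setd2 is the methyltransferase that places H3K36me3 on the bodies of transcribed genes, a mark that reader proteins have been reported to link to the choice of exons.

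Values are FPKM, that is fragments scaled by gene length and by library total, and at least 29698867 to 32367653 reads stood behind each library. KO was compared with CTRL by limma on log2(FPKM + 1) over 11399 genes that reached 1 FPKM in 2 or more libraries. Fold changes are given on that log2 scale with the standard error (SE), and a gene was called higher or lower at a Benjamini-Hochberg adjusted p under 0.05 over all genes tested. Setd2 was 23.4 and 25.3 FPKM in CTRL 1 and CTRL 2, and 21.3 and 19.5 FPKM in KO 1 and KO 2. Both KO libraries were the lower ones, with a log2 fold change of −0.24 ± 0.08 that did not pass the threshold (limma adjusted p = 0.0970), and this gene-level value cannot separate the floxed exons from the remainder of the transcript. Of 8 Treg and T cell markers, including Foxp3 and Il2ra, none was called, and their summed level was 2127 to 2256 FPKM in the 4 libraries. The summed level of 5 B cell markers was 18.5 to 22.0 FPKM in CTRL and 18.7 to 32.4 FPKM in KO, and that of 5 myeloid markers was 97.0 to 155 FPKM in CTRL and 80.1 to 195 FPKM in KO, higher in the first library of each genotype. The erythroid marker Hba-a2 was 1.95 to 10.3 FPKM in CTRL and 6.41 to 18.5 FPKM in KO, again higher in the first library of each genotype, and Hbb-bs was at 0 in all libraries but KO 1 (0.133 FPKM). No gene of these marker lists was called by limma or limma-voom, although 1 higher and 2 lower Treg and T cell markers and 1 higher B cell marker had an unadjusted p under 0.05.

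Treg cells transcribed these genes at high levels. Of the 66 members, 63 passed the filter on low values, and their mean FPKM over the 4 libraries ran from 1.03 (Snrpf) to 479 (Srsf5), with a median of 69.9 against 12.5 for all genes tested. In all, 33 members lay in the top 10% of genes tested, which began at 66.7 FPKM. The 3 members that did not pass were Srsf12, at 0.646 to 0.913 FPKM, the pseudogene Hnrnpa1l2-ps2, at 0.0726 to 0.170 FPKM, and Snrpn, listed at 0 in every library, as was Snurf, which overlaps it. The 9 members called were measured on at least 266 reads in every library. Because strand use and multi-mapped reads are not described, sequence shared with other transcripts leaves some values uncertain. More than 10% of the 100-base stretches of the transcripts also occurred in another gene for 13 of the 66 members, 3 of the 9 called (Sf3b4, Hnrnpab and Sf3a2) among them.

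The direction of the difference varied among the members. Of the 63 tested, 7 were higher in KO (11.1%, against 5.10% of all genes tested), 2 were lower (3.17%, against 4.65%) and 54 did not pass the threshold. The 7 higher members were Sf3b4, Snrpc, Hnrnpab, Hnrnpul1, Snrpa, Sf3a2 and Sf3a1, and the 2 lower ones were Srsf6 and Prpf40b. Fold changes were small, from 0.29 to 0.55 among the higher members, and the median absolute log2 fold change of the 63 members was 0.15 against 0.16 for all genes tested. In 26 members the KO libraries both exceeded the CTRL libraries (41.3%, against 29.0% of all genes tested), in 21 both were lower (33.3%, against 35.5%), and in 16 the groups overlapped. At an unadjusted p under 0.05, 14 members were higher (22.2%, against 16.3% of all genes tested) and 14 lower (22.2%, against 18.4%). The limma calls, unadjusted counts and library orderings of each family stand against the shares of all genes given in this paragraph. Family calls under limma-voom stand against larger shares, because limma-voom called more of all genes tested than limma did in both directions. Members had a median log2 fold change of 0.02, which was −0.03 under quantile normalization, and all genes tested had one of −0.02.

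These calls needed all 4 libraries. With any 1 library left out, limma called 0 of the 63 members, and 14 to 23 of them had an unadjusted p under 0.05, while 0 or 1 of all genes tested was called. All 9 called members kept the sign of their fold change without each library in turn, as did 51 of the 63 members tested. For every member whose groups did not overlap, the 9 among them, this outcome was fixed in advance and is no measure of stability. When every gene above 0 in any library was tested, 0 of 19888 genes passed, the smallest adjusted p of a member was 0.0860, and 15 members higher and 14 lower had an unadjusted p under 0.05. That set drew unevenly on the libraries. CTRL 1 held 19100 genes above 0 although its relative read depth was the lowest, while every other library held between 15913 and 16410. How far the loss of calls rested on the genes added by CTRL 1 was not tested.

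**Figure D1:**
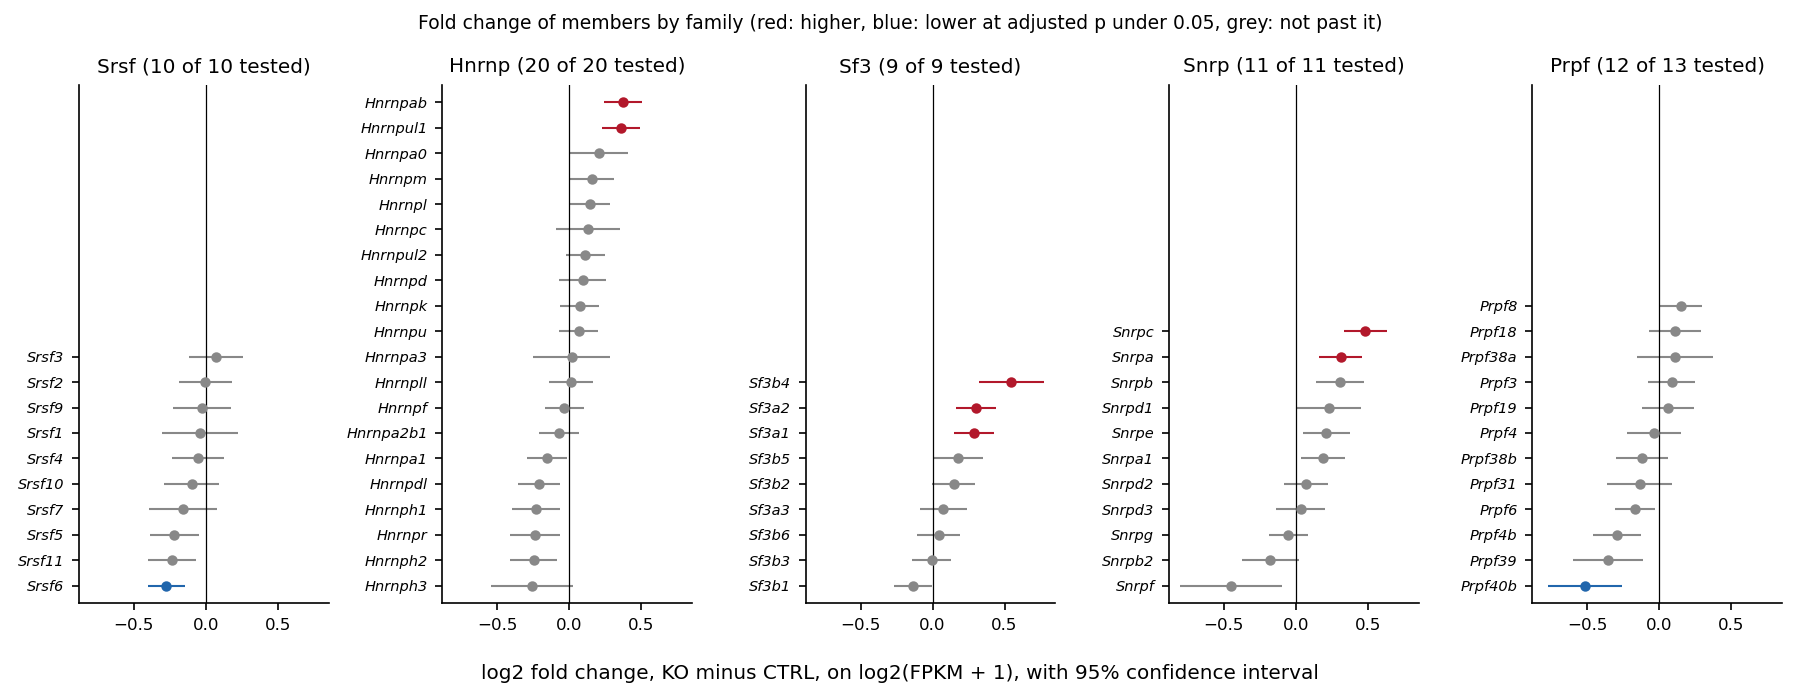
Log2 fold change (KO minus CTRL, on log2(FPKM + 1)) of 62 of the 63 members tested, by family, with its 95% confidence interval from limma. The 3 Sf3 genes, 2 Snrp genes and 2 Hnrnp genes drawn in red were higher and 1 Srsf gene and 1 Prpf gene in blue were lower at an adjusted p under 0.05, and 9 of 10 Srsf genes lay left of 0.

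The upstream sequences of Snrpc, Sf3a1, Hnrnpul1 and Srsf6 are shown because these 4 called members neither overlapped a gene listed in the file nor shared more than 1% of their 100-base stretches with another transcript. Each run is the 120 bases before the RefSeq start on GRCm38.p6, written along the gene's strand. For Snrpc that start lies inside the GENCODE span of the gene, which begins at 27838150. Its window therefore falls within the annotated gene and not upstream of it. The Sf3a1 window ends at 4160353, past the GENCODE start of that gene at 4160350, so its last bases also lie within the annotated gene. Capitals mark matches, on either strand, to 5 motifs, which were the CCAAT box (CCAAT or ATTGG), the GC box (GGGCGG or CCGCCC), the E-box (CACGTG), an ETS-type motif (CCGGAAG or CTTCCGG) and the TATA box (TATAAA or TTTATA).
Snrpc, higher in KO, chr17:27839967-27840086, plus strand: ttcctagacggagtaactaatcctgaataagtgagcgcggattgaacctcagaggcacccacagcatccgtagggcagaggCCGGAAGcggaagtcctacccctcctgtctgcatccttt
Sf3a1, higher in KO, chr11:4160234-4160353, plus strand: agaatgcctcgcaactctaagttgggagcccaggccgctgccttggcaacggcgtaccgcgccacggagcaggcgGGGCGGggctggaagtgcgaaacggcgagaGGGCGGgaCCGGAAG
Hnrnpul1, higher in KO, chr7:25754760-25754879, minus strand: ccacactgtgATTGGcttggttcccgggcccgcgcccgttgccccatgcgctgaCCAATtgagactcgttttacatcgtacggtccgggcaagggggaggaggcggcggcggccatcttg
Srsf6, lower in KO, chr2:162931388-162931507, plus strand: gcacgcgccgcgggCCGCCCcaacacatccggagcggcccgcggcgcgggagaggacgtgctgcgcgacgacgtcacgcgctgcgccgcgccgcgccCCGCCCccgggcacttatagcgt

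In these windows Snrpc held 1 ETS-type motif, Sf3a1 held 2 GC boxes and 1 ETS-type motif, Hnrnpul1 held 2 CCAAT boxes and Srsf6 held 2 GC boxes, and no matches overlapped. No motif was present in all 3 of the higher members shown. Over the 250 bases before the start, the ETS-type motif was present in 17 of the 55 members tested that had a sequence (30.9%) and in 15.3% of the 8873 genes tested that had one. Among the members it was present in 8 of 26 with a fold change above 0 (30.8%) and in 9 of 29 below 0 (31.0%), so its share did not separate the directions. A GC box was present in 57.7% of the former and 75.9% of the latter, against 60.0% of genes tested, and a CCAAT box in 50.0% and 44.8%, against 37.0%. The E-box was present in 9.09% of members and 8.61% of genes tested, and the TATA box in 9.09% and 6.01%. A match describes the letters of the window and not a bound site.

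Most SR protein genes had a fold change below 0. Of the 10 Srsf genes tested, limma called 1 lower (10.0%, against 4.65% of all genes tested) and 0 higher (against 5.10%). There were 3 lower and 0 higher at an unadjusted p under 0.05. Calls were the same 1 and 0 under limma-voom on reads recovered from the FPKM. The fold change was below 0 in 9 of the 10, against 53.8% of all genes tested, but the KO values were both under the CTRL values in only 4 (40.0%, near the 35.5% of all genes), and in none were both over them. Their median log2 fold change was −0.08, and it stayed below 0 under 12 alternative settings of the test (−0.12 to −0.05). It was −0.18 without CTRL 2 and −0.04 without CTRL 1, so its size rested on single libraries. So did the count of genes below 0, which was 7 of 10 without CTRL 1 and without KO 1. That count was 8 under median-ratio scaling and with the GC trend removed, and 10 under quantile normalization.

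Srsf6, an SR protein that regulates exon inclusion (ENSMUSG00000016921, GRCm38 chromosome 2, 162931528 to 162937121), was the member called. Its level was 126 and 125 FPKM in CTRL 1 and CTRL 2, and 105 and 102 FPKM in KO 1 and KO 2. The groups did not overlap, the libraries of each genotype lay close together, and the log2 fold change was −0.27 ± 0.05 (limma adjusted p = 0.0422). The call was lost under 3 of the 12 alternative settings, which were the test of every gene above 0 (adjusted p = 0.0876), the fit without the variance trend (0.0696) and the removal of the exon length trend (0.0579). Srsf5, the most abundant of all 66 members, was 527 and 504 FPKM in CTRL and 460 and 426 FPKM in KO. Both KO libraries were again the lower ones, but the log2 fold change of −0.22 ± 0.07 did not pass (limma adjusted p = 0.0885). Srsf2, which binds exonic enhancers and is the second most abundant SR gene, was 187 and 166 FPKM in CTRL and 175 and 177 FPKM in KO, so that both KO libraries lay between those of CTRL. Srsf3, with the highest fold change of the family, was 92.0 and 82.9 FPKM in CTRL and 94.2 and 89.1 FPKM in KO, and its log2 fold change of 0.07 ± 0.07, which was −0.02 under quantile normalization, did not pass (limma adjusted p = 0.545). The summed level of the 11 Srsf genes was 1322 and 1228 FPKM in CTRL and 1172 and 1130 FPKM in KO, a difference of −9.72% between the means. An exact permutation test over libraries gave p = 0.333, the smallest that 2 against 2 libraries can give, so this test cannot reach 0.05 for any sum given here.

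**Figure D2:**
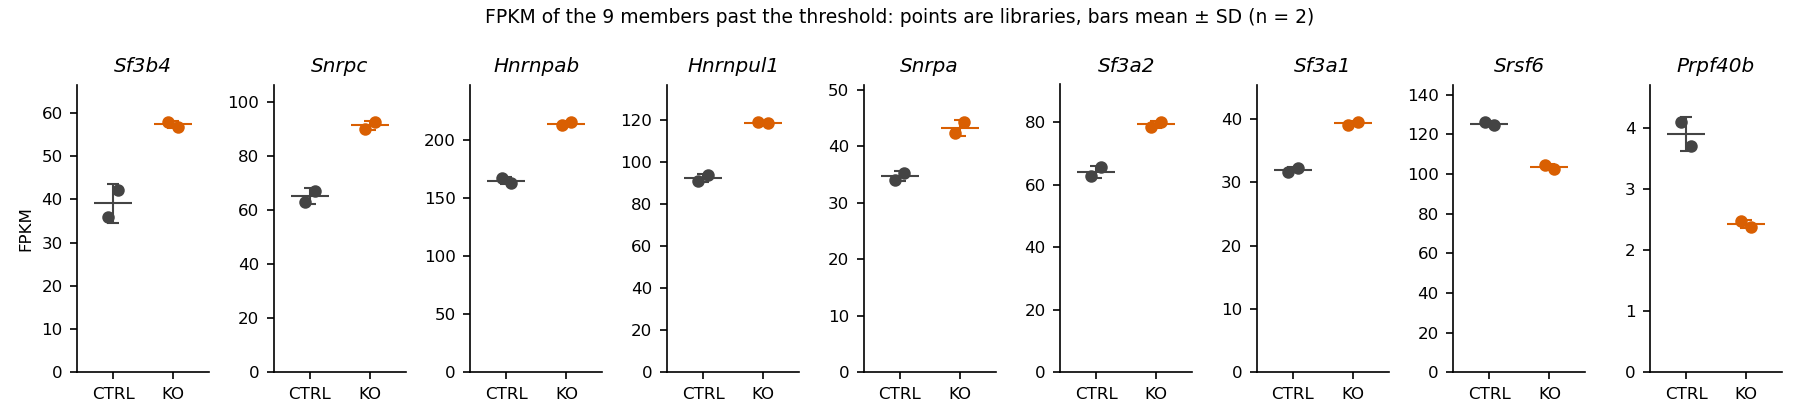
FPKM of the 9 members past the threshold in CTRL and KO, 1 point per library, with bars for the mean and SD of 2 libraries; each axis starts at 0. In all 9 the KO libraries lie on one side of the CTRL libraries, above in the first 7 panels and below for Srsf6 and Prpf40b.

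The hnRNP genes were split. Of 20 tested, 2 were higher (10.0%, against 5.10% of all genes tested) and 0 lower (against 4.65%). There were 4 higher and 5 lower at an unadjusted p under 0.05, and calls were the same 2 and 0 under limma-voom. Both KO libraries lay above both CTRL libraries in 10 of the 20 (against 29.0% of all genes tested). They lay below in 7 of the 20, near the 35.5% of all genes, and the groups overlapped in 3. Their median log2 fold change was 0.04, but −0.04 under quantile normalization, which also called 3 of them lower.

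Hnrnpab, a regulator of mRNA stability and transport as well as splicing (ENSMUSG00000020358, chromosome 11, 51600100 to 51606847), was 167 and 163 FPKM in CTRL and 213 and 215 FPKM in KO. It was higher in both KO libraries, with a log2 fold change of 0.38 ± 0.05 (limma adjusted p = 0.0351). Phykpl, which overlaps it on the other strand and holds 18.4% of its 100-base stretches, was 6.26 to 6.40 FPKM in CTRL and 7.02 to 8.36 FPKM in KO. Without stated strand use, the reads of Hnrnpab and Phykpl cannot be told apart where they overlap. Hnrnpul1, a nuclear RNA-binding protein also tied to DNA repair (ENSMUSG00000040725, chromosome 7, 25721165 to 25754757), was 91.3 and 93.7 FPKM in CTRL and 119 and 119 FPKM in KO. Its log2 fold change was 0.36 ± 0.05 (limma adjusted p = 0.0351).

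The 2 most abundant hnRNP genes were not called. Hnrnpa1, which binds splicing silencers, was 347 and 342 FPKM in CTRL and 315 and 303 FPKM in KO, with both KO libraries lower and a log2 fold change of −0.15 ± 0.05 (limma adjusted p = 0.117) that was −0.26 and passed under quantile normalization (adjusted p = 0.0454). It shares 25.9% of its stretches with pseudogenes and other transcripts, so reads may have been divided among them. Hnrnpk, a poly(C)-binding protein, was 228 and 219 FPKM in CTRL and 234 and 236 FPKM in KO, with a log2 fold change of 0.07 ± 0.05 that turned to −0.05 under quantile normalization. Hnrnph3 had the lowest fold change of the family, at 3.99 and 3.97 FPKM in CTRL and 3.47 and 2.86 FPKM in KO (log2 fold change −0.26 ± 0.11, limma adjusted p = 0.171). Rufy2, which overlaps Hnrnph3 on the other strand, was 8.28 and 7.49 FPKM in CTRL and 5.54 and 5.49 FPKM in KO. The Hnrnph3 paralogs Hnrnph1 and Hnrnph2, chosen for mention after their values were seen, had log2 fold changes of −0.23 ± 0.07 and −0.25 ± 0.06 with both KO libraries lower, and neither passed (limma adjusted p = 0.0795 and 0.0677). The summed level of the 21 Hnrnp genes was 2567 and 2502 FPKM in CTRL and 2564 and 2579 FPKM in KO, so the groups overlapped.

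The SF3A and SF3B complexes are parts of the U2 snRNP that hold it on the branch point. All 9 of their genes matched by symbol were tested, and 3 were called higher (33.3%, against 5.10% of all genes tested) and 0 lower (against 4.65%). There were 4 higher and 1 lower at an unadjusted p under 0.05, and calls were the same 3 and 0 under limma-voom. Higher calls numbered 0 without the variance trend, 1 under quantile normalization (with 1 lower), 1 with the exon length trend removed and 2 with the GC trend removed. In 6 of the 9 both KO libraries lay above both CTRL libraries (66.7%, against 29.0% of all genes tested), and in 1 below (11.1%, against 35.5%). The median log2 fold change was 0.15, 0.04 to 0.17 under the 12 alternative settings and 0.11 to 0.18 without 1 library.

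Sf3b4, the SF3B subunit that contacts RNA upstream of the branch point (ENSMUSG00000068856, chromosome 3, 96172332 to 96177564), had the highest fold change of all members with all 4 libraries. It was 35.9 and 42.2 FPKM in CTRL and 57.9 and 56.8 FPKM in KO, with a log2 fold change of 0.55 ± 0.09 (limma adjusted p = 0.0378). The CTRL libraries stood further apart than those of KO but below both, and 32.5% of the gene's stretches also occur in the pseudogene Gm7935, which is not listed in the table. The other 2 called genes encode subunits of SF3A. Sf3a2 (ENSMUSG00000020211, chromosome 10, 80798198 to 80804924) was 62.7 and 65.6 FPKM in CTRL and 78.6 and 80.1 FPKM in KO (log2 fold change 0.30 ± 0.05, limma adjusted p = 0.0411). Plekhj1, on its other strand and holding 12.4% of its stretches, was 51.2 and 53.0 FPKM in CTRL and 58.1 and 61.6 FPKM in KO, and without stated strand use the reads of this pair cannot be told apart. Sf3a1 (ENSMUSG00000002129, chromosome 11, 4160350 to 4182541), which shares no stretch with another transcript, was 31.7 and 32.2 FPKM in CTRL and 39.1 and 39.5 FPKM in KO (log2 fold change 0.29 ± 0.05, limma adjusted p = 0.0423).

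Subunits of one complex were found on both sides of 0. Sf3b1, the large scaffold of SF3B and the most abundant gene of the family, was 159 and 156 FPKM in CTRL and 141 and 145 FPKM in KO, the opposite side from Sf3b4, with a log2 fold change of −0.14 ± 0.05 that did not pass (limma adjusted p = 0.132). This value moved widely with the processing, from −0.02 with the GC trend removed and −0.05 with the exon length trend removed to −0.26, a call, under quantile normalization (adjusted p = 0.0435). Sf3b2 was 97.5 and 102 FPKM in CTRL and 108 and 113 FPKM in KO, with both KO libraries higher and no call (limma adjusted p = 0.147). Sf3a3, the remaining SF3A subunit, named after its values were seen, was 35.9 and 35.5 FPKM in CTRL and 36.2 and 39.2 FPKM in KO, and its log2 fold change was 0.07 with a 95% interval of −0.09 to 0.24. The SF3B subunit Phf5a, whose symbol lies outside the family and which was likewise named after its values were seen, was 22.2 FPKM in both CTRL libraries and 26.9 and 28.2 FPKM in KO (log2 fold change 0.30 ± 0.06, limma adjusted p = 0.0467). The summed level of the 9 Sf3 genes was 610 and 628 FPKM in CTRL and 662 and 677 FPKM in KO, 8.06% higher on average (exact permutation p = 0.333, the smallest possible).

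Among the Snrp genes, the called members encode proteins particular to the U1 snRNP. Of the 11 tested, 2 were higher (18.2%, against 5.10% of all genes tested) and 0 lower (against 4.65%). There were 6 higher and 1 lower at an unadjusted p under 0.05. Calls were 3 higher and 0 lower under limma-voom, which called more of all genes tested than limma did. Both KO libraries lay above both CTRL libraries in 7 (63.6%, against 29.0% of all genes tested) and below in 3 (27.3%, against 35.5%). The median log2 fold change was 0.19 (0.11 to 0.21 under the 12 alternative settings and 0.14 to 0.23 without 1 library).

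Snrpc, protein C of the U1 snRNP, which helps it recognise the start of an intron (ENSMUSG00000024217, chromosome 17, 27838150 to 27851968), was 63.0 and 67.1 FPKM in CTRL and 90.0 and 92.5 FPKM in KO. The log2 fold change was 0.48 ± 0.06 (limma adjusted p = 0.0346), and the call held under 11 of 12 alternative settings, all but the test of every gene above 0. Snrpa, protein A of the U1 snRNP, which binds a stem-loop of its RNA (ENSMUSG00000061479, chromosome 7, 27187005 to 27196271), was 34.1 and 35.3 FPKM in CTRL and 42.3 and 44.3 FPKM in KO (log2 fold change 0.31 ± 0.06, limma adjusted p = 0.0429). BC024978, which overlaps Snrpa on the other strand, was 2.58 to 2.69 FPKM in CTRL and 1.77 to 2.29 FPKM in KO, so it lay on the opposite side. Snrnp70, the third protein particular to U1, is listed with the other spliceosome proteins and was named after its values were seen. It was 201 and 194 FPKM in CTRL and 166 and 177 FPKM in KO, with both KO libraries lower, and did not pass (log2 fold change −0.20 ± 0.06, limma adjusted p = 0.0861).

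The 7 Sm core proteins form the ring shared by most snRNPs, and none of their genes was called by limma, with 3 higher and 1 lower at an unadjusted p under 0.05. Snrpb, which encodes the Sm proteins B and B′, was 114 and 124 FPKM in CTRL and 150 and 145 FPKM in KO. Its log2 fold change of 0.30 ± 0.06 lay just outside the threshold (limma adjusted p = 0.0509) and passed it under 5 of the 12 alternative settings, limma-voom among them (adjusted p = 0.0339). Snrpg, the most abundant Sm gene, was 177 and 181 FPKM in CTRL and 175 and 170 FPKM in KO, a log2 fold change of −0.05 ± 0.05. Snrpf had the lowest fold change of the family, at 1.20 and 1.49 FPKM in CTRL and 0.732 and 0.694 FPKM in KO (log2 fold change −0.45 ± 0.14, limma adjusted p = 0.0908), a size that the pseudocount of 1 understates, since it was −0.82 with a pseudocount of 0.1 and −0.90 under limma-voom, without a call. That level rested on as few as 20 reads in a library, far below the 1321 or more reads of every other Sm gene, and 78.3% of its stretches also occur in other transcripts, Ccdc38 on the other strand among them, so its value is uncertain. The 7 Sm genes summed to 673 and 674 FPKM in CTRL and 718 and 744 FPKM in KO. The 4 genes for proteins of U1 or U2 (Snrpa, Snrpc, Snrpa1 and Snrpb2) summed to 178 and 177 FPKM in CTRL and 207 and 214 FPKM in KO, 18.5% higher on average (exact permutation p = 0.333, the smallest possible). Most of that difference was Snrpc, and Snrpb2, named after its values were seen, lay on the other side, at 51.9 and 45.7 FPKM in CTRL and 42.7 and 43.2 FPKM in KO.

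The Prpf genes encode proteins of the later snRNP assembly, of the activating complex and of U1-linked factors. Of the 13 tested, 1 was lower (7.69%, against 4.65% of all genes tested) and 0 higher (against 5.10%). There were 4 lower and 0 higher at an unadjusted p under 0.05. Calls were 3 lower and 0 higher under limma-voom, which called more of all genes tested than limma did. Both KO libraries were the lower ones in 6 of the 13 (46.2%, against 35.5% of all genes tested) and the higher ones in 3 (23.1%, against 29.0%). Their median log2 fold change was −0.04, −0.05 to 0.00 under the 12 alternative settings and −0.08 to 0.00 without 1 library, and it was just above 0 under quantile normalization and without CTRL 1. Prpf40b, a homologue of a yeast U1 protein (ENSMUSG00000023007, chromosome 15, 99295087 to 99317018), had the lowest fold change of the family. It was 4.09 and 3.70 FPKM in CTRL and 2.47 and 2.37 FPKM in KO, with a log2 fold change of −0.51 ± 0.10 (limma adjusted p = 0.0441), which the log2(FPKM + 1) scale understates at such a level (−0.66 with a pseudocount of 0.1). The call was lost when every gene above 0 was tested (adjusted p = 0.117) and with the exon length trend removed (0.0529).

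Prpf8, the scaffold of the catalytic centre, had the highest fold change of the family, at 64.1 and 68.4 FPKM in CTRL and 74.2 and 72.8 FPKM in KO (log2 fold change 0.15 ± 0.06, limma adjusted p = 0.148). Prpf38b, the most abundant Prpf gene, was 90.8 and 83.4 FPKM in CTRL and 77.0 and 83.0 FPKM in KO, with a log2 fold change of −0.12 ± 0.07 that did not pass. Both KO libraries were lower, KO 2 by less than the gap between the CTRL libraries. The summed level of the 13 Prpf genes was 402 and 385 FPKM in CTRL and 374 and 383 FPKM in KO.

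**Figure D3:**
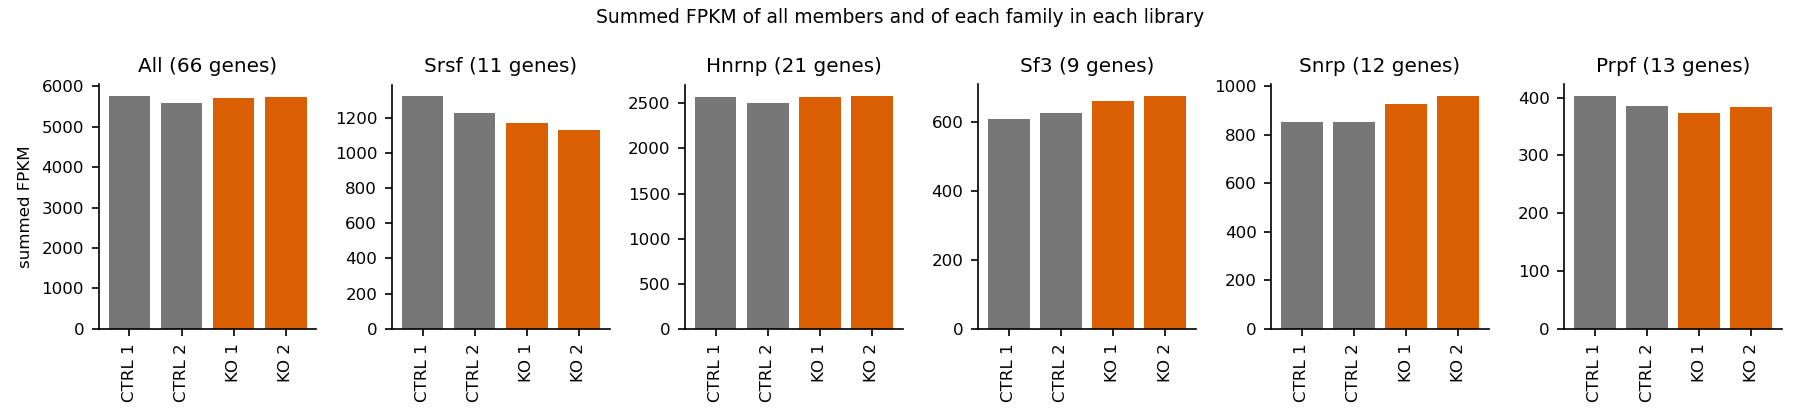
Summed FPKM of all 66 members and of each family in each of the 4 libraries, each on its own axis from 0. The bars of the KO libraries are lower for Srsf (1172 and 1130 against 1322 and 1228) and higher for Snrp (926 and 959 against 851 and 852), while those of all members overlap.

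Over all 66 members these differences left the sum nearly level. It was 5753 and 5595 FPKM in CTRL and 5698 and 5727 FPKM in KO, 1.20% to 1.23% of the library in every case. The KO mean was 38.3 FPKM above that of CTRL (exact permutation p = 1), less than the SD of 112 FPKM between the CTRL libraries, and 18.2 FPKM below it when all libraries were set to the same sum. Leaving out CTRL 1 moved the difference to 117 FPKM, and leaving out CTRL 2 turned it to −40.8 FPKM. Without the 5 most abundant members, a choice made after seeing the data, the KO mean was 182 FPKM above.

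Fold changes of the members varied with base composition. Across the 63 members the Pearson correlation of the log2 fold change with the GC content of the annotated transcripts was 0.45 (Spearman 0.49), and across 11397 genes tested it was 0.20 (Spearman 0.24). These are descriptions across genes, which share the same 4 libraries and are not independent replicates. The 21 members of lowest GC content (37.0% to 43.7%) had a median log2 fold change of −0.10 and no call, close to the −0.12 of the 1764 genes tested in that range. The 21 of highest GC content (48.9% to 59.6%) had a median of 0.14 against 0.02 for the 5911 genes in their range, and held 6 of the 7 higher members as well as Prpf40b. With each library's trend with GC content removed, 5 members were called higher and 2 lower, and Sf3a2 and Snrpa no longer passed (adjusted p = 0.0663 and 0.0575). The correlation with log10 exon length was weaker, at −0.14 across members and −0.09 across genes tested, and removing the trend with exon length left 4 members called higher and 0 lower, with 291 lower calls among all genes.

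**Figure D4:**
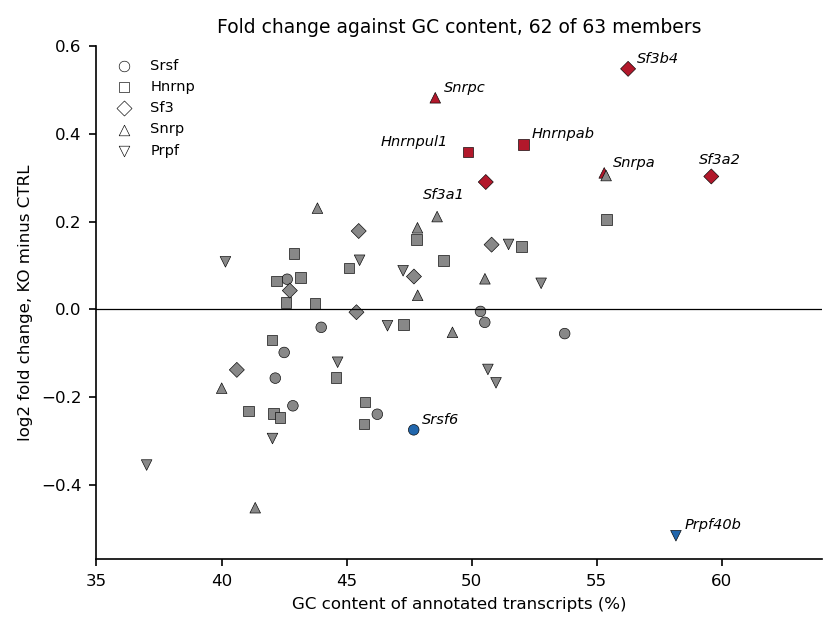
Log2 fold change of 62 of the 63 members tested against the GC content (percent) of its annotated transcripts, with marker shape for the family and the colours of called members as red (higher) and blue (lower). The higher members lie between 48.5% and 59.6% GC, and Prpf40b lies among them on the GC axis but is the lowest on this log2(FPKM + 1) fold change axis.

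Many members have annotated transcripts that are predicted to be degraded. In GENCODE vM21, 31 of the 63 members tested (49.2%) had at least 1 transcript annotated as a target of nonsense-mediated decay (NMD), against 30.4% of 10671 protein-coding genes tested, and the share was 90.0% among the Srsf genes and 11.1% among the Sf3 genes. Members with such a transcript had a median log2 fold change of −0.05 and those without had 0.09, and for protein-coding genes these medians were −0.04 and −0.01. The order was not the same in every family. Medians with and without were 0.26 and 0.03 for Snrp and −0.05 and −0.10 for Srsf. They were −0.03 and 0.12 for Hnrnp, −0.14 and 0.08 for Prpf, and −0.14 (1 gene) and 0.16 for Sf3. Of the called members, Snrpa, Srsf6 and Prpf40b had one. A retained-intron transcript was annotated for 74.6% of members and 61.3% of protein-coding genes. FPKM per gene adds all these transcripts together, so whether their proportions differed between KO and CTRL was not tested.

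Other splicing genes were listed by role, under symbols that the families do not cover. Of 106 tested, 2 were higher (1.89%, against 5.10% of all genes tested) and 2 lower (1.89%, against 4.65%). Of 55 other spliceosome proteins 2 (Ppil1 and Phf5a) were higher and 1 lower, of 25 tested RNA-binding regulators 0 were higher and 1 lower, and of 23 SR-related proteins and their kinases none was called by limma, with 4 lower (17.4%, near the 18.4% of all genes) and 0 higher at an unadjusted p under 0.05. Under limma-voom, which also called more of all genes tested than limma did, these lists gave 5 higher and 2 lower, 0 and 2, and 0 and 2. Their median log2 fold changes were 0.04, −0.03 and −0.07. Ppil1, a cyclophilin of the activated spliceosome, was 32.8 and 32.0 FPKM in CTRL and 51.7 and 54.2 FPKM in KO, above every member of the 5 families in its log2 fold change of 0.69 ± 0.06 (limma adjusted p = 0.0299). Txnl4b, a thioredoxin-like partner of Prpf6, was 5.24 and 4.65 FPKM in CTRL and 2.00 and 2.21 FPKM in KO (log2 fold change −0.93 ± 0.11, limma adjusted p = 0.0346). Tia1, which promotes recognition of weak intron starts through protein C of the U1 snRNP, was 23.4 and 22.8 FPKM in CTRL and 14.6 and 15.4 FPKM in KO (log2 fold change −0.59 ± 0.06, limma adjusted p = 0.0324). It thus differed in the opposite direction from Snrpc, which encodes that protein.

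None of the 3 genes for H3K36me3 readers tied to splicing was called by limma or limma-voom, and 0 had an unadjusted p under 0.05. Morf4l1, whose product MRG15 recruits a polypyrimidine tract-binding protein, was 89.5 and 83.0 FPKM in CTRL and 89.4 and 89.3 FPKM in KO, a log2 fold change of 0.05 with a 95% interval of −0.10 to 0.21. Psip1 was 46.5 and 43.6 FPKM in CTRL and 43.8 and 45.3 FPKM in KO, a log2 fold change of −0.02 with an interval of −0.17 to 0.14. Zmynd11, which associates with U5 proteins, was 46.2 and 46.3 FPKM in CTRL and 41.5 and 43.9 FPKM in KO, with both KO libraries lower and an interval of −0.26 to 0.03.

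Genes of dividing cells were higher in KO, while the fold change was above 0 in 34 of the 63 members tested and below 0 in 29. Of 10 cycling cell markers, 8 were called higher in KO, Mki67 and Top2a among them, with a median log2 fold change of 0.90 over the list, and the list summed to 122 to 166 FPKM in CTRL and 270 to 271 FPKM in KO. Its part in the differences of the members was not tested, and in these bulk libraries a larger share of dividing cells and more RNA per cell cannot be told apart.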

How the data were processed

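RNA-seq of splenic Treg cells (2 CTRL and 2 KO libraries, oligo(dT)-selected RNA, 150 bp read pairs) was processed by the authors, who, per the submitters' processing notes and the study's methods, used FastQC, HISAT2 2.2.1, featureCounts 2.0.1 and edgeR 3.34.0 with mm10 and deposited FPKM per gene. The annotation version, strand use, treatment of multi-mapped reads and gene length behind the FPKM were not given in the sources used here. Columns headed WT in the table were taken as the CTRL libraries of the same number.

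The members and lists were chosen with earlier results of these data known. limma (version 3.58.1, R 4.3.3) was fitted to log2(FPKM + 1) with an intensity trend in its eBayes step, two-sided, over the 11399 genes that reached 1 FPKM in 2 or more libraries. A count test was not the main test because the deposited values are FPKM. For all of the 19888 genes above 0 in any library (100%), the FPKM stood at whole multiples (within 0.02 of a read) of what 1 read is worth. A gene above 0 in only 1 library was set to 1 read there, so its match was fixed in advance. Genes above 0 in few libraries were also easily matched, so the 100% is no measure of recovery. The recovered reads came to at least 29698867, 31602030, 32216553 and 32367653 in CTRL 1, CTRL 2, KO 1 and KO 2. They are lower bounds, and limma-voom was run on them. Each SE combined the spread between the 2 libraries of each genotype with a variance trend drawn from all genes tested. Its median was 0.0643 (log2) over the members.

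Named were Setd2, the readers and, per family, the 2 most abundant members, every member called (up to 8) and the highest and lowest fold changes; in each other list, the highest and lowest fold changes called. Positions, exon length, GC content, transcript types and shared 100-base stretches came from GENCODE vM21 (GRCm38), and upstream sequences from RefSeq (GRCm38.p6), present for 55 members tested. For a gene with several starts the first listed was searched. A member and a marker gene are not reported here and remain in the counts. As alternatives, 0.1 was tried as pseudocount, with 2 filters, 3 scalings, 2 variance models, the replicate number as a block, removal of a trend with exon length, limma-voom and leaving out each library. Removal of a GC trend was added after seeing the data, as were leaving out libraries or the 5 most abundant members for the summed FPKM. Python 3.11.15, numpy 2.4.6, pandas 2.3.3, scipy 1.17.1 and matplotlib 3.10.9 were used.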

Additional observations from a re-analysis of the deposited data

How the results depend on the processing

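Member calls were 7 higher and 2 lower, and with any 1 library left out they were 0 and 0, as were those of the other splicing genes (2 and 2 with all libraries), while all genes went from 581 higher and 530 lower to 0 to 1 higher and 0 to 1 lower. No genes were called in any of these sets when every gene above 0 was tested. Member calls were 4 higher and 7 lower under quantile normalization, 2 and 1 without the variance trend, 4 and 0 with the exon length trend removed, and 8 and 4 under limma-voom. Calls over all genes were 315 higher and 364 lower without the variance trend, 968 and 805 with the replicate block, 369 and 291 with the exon length trend removed, and 867 and 1024 under limma-voom. The other splicing genes gave 5 higher and 4 lower with a mean FPKM above 5, 4 and 2 under median-ratio scaling, 2 and 5 with the same summed FPKM, 1 and 6 under quantile normalization, 1 and 2 without the variance trend, 4 and 5 under robust eBayes, 5 and 5 with the replicate block, 1 and 2 with the exon length trend removed, 5 and 3 with the GC trend removed, and 5 and 6 under limma-voom.

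The median log2 fold change of members (0.0162) was 0.0375 with a mean FPKM above 5, 0.0398 under median-ratio scaling and with the exon length trend removed, −0.0263 under quantile normalization, 0.0718 with the GC trend removed, and −0.0025 to 0.0519 without 1 library. The summed FPKM difference (38.3) was −18.2 with the same summed FPKM, 136 under median-ratio scaling and −40.8 to 117 without 1 library. Higher calls were 52.3% of all calls, and 60.2% under median-ratio scaling.

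Of the 29 named genes, signs turned for Srsf2 (0.0197) and Psip1 (0.00752) under median-ratio scaling, Srsf3 (−0.0209), Hnrnpk (−0.0537) and Morf4l1 (−0.0278) under quantile normalization, and Psip1 with the exon length (0.00051) or GC trend (0.0501) removed. Without 1 library, the values spanned 0 for Srsf2 (−0.0881 to 0.0790), Srsf3 (−0.0055 to 0.143), Morf4l1 (−0.0013 to 0.105) and Psip1 (−0.0617 to 0.0291). None of these was called. Of the called members, Sf3a2 and Snrpa kept their call under 7 of 12 alternatives and Hnrnpab and Snrpc under 11. The cause of these changes was not tested, except that fewer libraries leave fewer degrees of freedom.

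The replicate numbers are not stated to pair the libraries. Deviations of same-numbered libraries correlated across genes at 0.342 (Pearson) and 0.0553 (Spearman), and the replicate block gave 8 higher and 2 lower members, the added one being Snrpb (adjusted p = 0.0390). With 2 libraries per group and gene-level FPKM, neither isoforms nor the spread between mice could be measured.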
